A study of Mus musculus with 75 samples.

Results

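Single-cell RNA-Seq was used to compare 11 OHC-like cells with 16 wild-type supporting cells (WT_P60 SCs), 27 of the 75 cells of the series. The groups were taken from the sample titles. The OHC-like cells were Tdtomato+ cells of mice that carried Slc26a5 DTR/+, Rosa26 CAG-LSL-Ikzf2/+, CAG-LSL-Atoh1+ and Fgfr3-iCreER+ (Fgfr3-Atoh1-Ikzf2-DTR). Tamoxifen was given at P30 and at P31 to switch on Atoh1 and a tagged Ikzf2, which is made together with Tdtomato, in supporting cells (SCs), mainly the pillar cells (PCs) and Deiters' cells (DCs) that Fgfr3-iCreER reaches in the adult cochlea. Diphtheria toxin (DT, 20 ng/g) at P36 then killed outer hair cells (OHCs), which carry the toxin receptor (DTR) from the Slc26a5 locus, and cells were collected at P60. The authors sorted the Tdtomato+ cells by their RNA: OHC-like cells held both Myo7a and Slc26a5 (Prestin). The WT_P60 SCs were Tdtomato+ cells of Fgfr3-iCreER+; Ai9/+ mice, primarily PCs and DCs, that had the same tamoxifen and age but no DT, no Atoh1 or Ikzf2 transgene and no DTR allele. All mice were C57BL/6. Transgenes, DTR allele, DT and the loss of neighbouring OHCs therefore differ together between the groups and cannot be told apart.

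Hair cells turn sound into electrical signals: deflection of actin-filled stereocilia opens a mechanotransduction channel. OHCs in addition change their length with voltage through the motor protein Prestin and receive an inhibitory cholinergic input through the receptor subunits Chrna9 and Chrna10. SCs surround them, hold the epithelium together, pass potassium through gap junctions of the connexins Gjb2 and Gjb6, and do not make hair cells in the adult mammal. Atoh1 is the basic helix-loop-helix factor that starts hair cell differentiation, and Ikzf2 (Helios) is a zinc-finger factor of maturing OHCs.

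The cells were hand-picked, and their full-length cDNA was amplified without molecular identifiers, so a count is a read. Counts per cell summed to 6382171 to 20254735 (median 9209094) in OHC-like cells and 5576508 to 8355421 (median 7032280) in WT_P60 SCs. Levels are given in CPM, a gene's read count scaled to the cell's total with TMM factors. A gene is said to be on in a cell where it was at 1 CPM or more of the cell's own total, without those factors. Genes on numbered 7955 ± 1647 (SD, n = 11) and 6780 ± 686 (SD, n = 16, 2-sided permutation test, p = 0.0122, adjusted over 4 measures 0.0162). The share of counts in mitochondrial genes was 7.33% ± 5.82 and 1.94% ± 0.340 (permutation p = 2e-05, the smallest that 100000 resamples can give, adjusted 8e-05). OHC-like cell 4 stood apart, with 3348 genes detected and 23.8% of its counts in mitochondrial genes. Without it the means were 8415 genes and 5.68%. The library numbers in the labels fall into consecutive series. The 16 WT_P60 SCs formed a series of their own, and the OHC-like cells lay in 4 others, A (cell 1), B (cells 2 to 6), D (cells 7 to 9) and E (cells 10 and 11), so series and group cannot be told apart. Cells are the units of each test. The number of mice is not stated in the sources used here. The p-values therefore set group differences against the spread between cells and not between mice. If cells of the same mouse are alike, the p-values may be too small.

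OHC-like cells gained more genes than they lost. Of 11443 genes tested by edgeR's quasi-likelihood test in a fit of all 5 groups of the series, 660 (5.77%) were higher in OHC-like cells and 75 (0.655%) were lower. A call needed a Benjamini-Hochberg adjusted p below 0.001 together with a log2 fold change beyond 2. Of the 660 genes, 496 had no count in any of the 16 WT_P60 SCs. Of the 75 genes, 28 had no count in any of the 11 OHC-like cells. The log2 fold change was above 0 for 58.9% of all genes tested, with a median of 0.32 under TMM scaling and 0.13 under DESeq2's size factors, and list medians are read against it. Where a group had no count of a gene, a fold is given as a lower bound against a floor of 3 counts in that group's smallest library, 0.506 CPM for WT_P60 SCs and 0.682 CPM for OHC-like cells. In 95 genes (0.83% of those tested) every OHC-like cell was above every WT_P60 SC, and in 107 (0.935%) every WT_P60 SC was above every OHC-like cell. Of these, 80 and 34 were also called. Without OHC-like cell 4 the numbers were 138 (1.21%) and 110 (0.961%). The balance of gained and lost genes depended on the fit: DESeq2 gave 835 higher and 251 lower, limma-trend 634 and 385, and edgeR on the 2 groups alone, with 7905 genes left by its filter, 102 and 118.

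**Figure D1:**
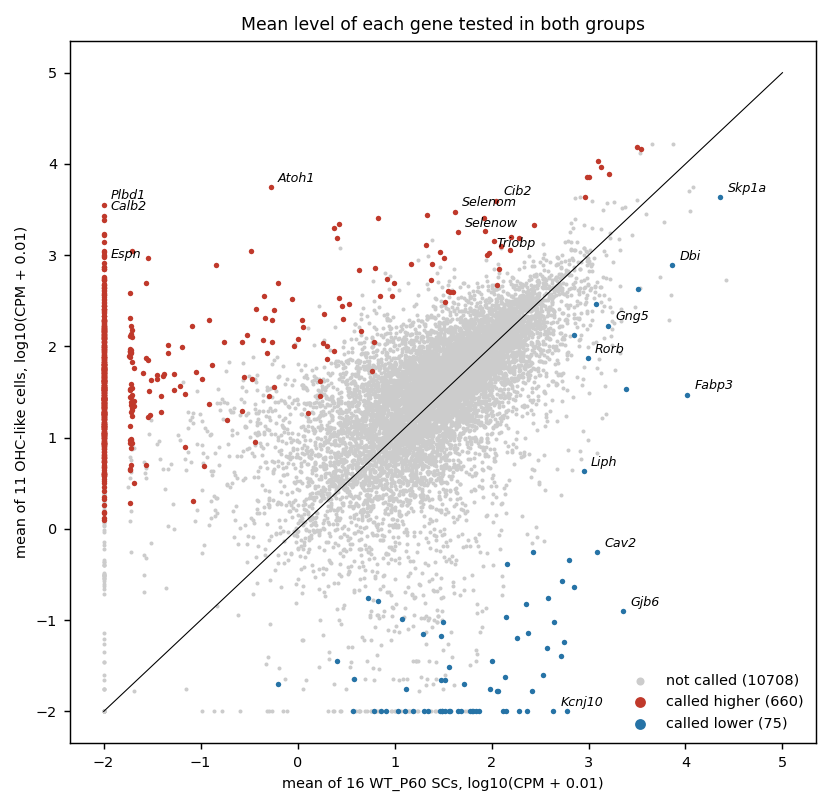
Mean level of each of the 11443 genes tested in 16 WT_P60 SCs (x axis) and 11 OHC-like cells (y axis), both as log10(CPM + 0.01), with called genes in red (660 higher) and blue (75 lower) and equal levels on the line. The column of red points at the left edge holds the 496 higher genes with no count in any SC, and the row of blue points at the bottom the 28 lower genes with no count in any OHC-like cell.

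The labels were checked against marker genes first. Myo7a, an unconventional myosin of stereocilia, and Slc26a5 had been used to sort the cells and are given as a description. The lowest, median and highest CPM in OHC-like cells were 50.9, 679 and 4371 for Myo7a and 16.2, 57.5 and 178 for Slc26a5. Myo7a had no count in WT_P60 SCs and Slc26a5 had 1 count in 16 cells together. Espn (chr4:152120331-152152371 in GRCm38), which encodes the actin-bundling protein espin of stereocilia, was no part of the sort. It ranged from 442 to 1482 CPM in OHC-like cells (mean 815 ± 327 SD, n = 11) and had no count in any SC. It was at least 1608-fold higher (edgeR adjusted p = 1.41e-28), the smallest adjusted p of all genes tested. Espn was also on in 15 of 15 cells of the same mouse model that the study classed as SCs failing to become HCs (median 189 CPM). It therefore sets OHC-like cells apart from WT_P60 SCs but does not single them out among the Tdtomato+ cells of that model. Of 6 markers of OHCs, Ocm, Ikzf2, Slc26a5 and Chrna10 were called. Lbh, a transcriptional cofactor of OHCs, was not: it lay at 0, 9.67 and 91.8 CPM (lowest, median and highest) against 0, 0 and 42.7 CPM in SCs (log2 fold change 1.14, standard error 1.28, adjusted p = 0.764). The 6 markers of inner hair cells were near 0 in both groups, with summed levels of 0 to 57.0 CPM in OHC-like cells and 0 to 19.0 CPM in SCs. Among 9 SC markers, Gjb2, Gjb6, Fgfr3, Bace2 and Ceacam16 were detected in 16 of 16 WT_P60 SCs and Sox10 in 15, while Slc1a3, the glial glutamate transporter of Deiters' and phalangeal cells, had no count in any SC. Summed over the list, SC markers reached 162 to 1512 CPM in OHC-like cells and 2305 to 14154 CPM in SCs.

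The sequence just before the start is shown for 5 of the called genes. The windows are the 250 bases upstream of RefSeq starts in GRCm38.p6, printed 5′ to 3′ on the gene's strand, with the hexamer CAGCTG in capitals. CAGCTG reads the same on both strands and is one of the E-boxes, the class of sites that basic helix-loop-helix factors such as Atoh1 bind. These windows are shown because Espn, Chrna9, Tmie and Lhfpl5 were called higher and hold the hexamer, and Gjb6 because it was called lower and does not. Windows of Jag2, of both Myo7a starts and of a further Espn start were read too and hold no CAGCTG, although these genes were higher. Espn has 2 such windows, upstream of separate starts at chr4:152152390-152152639 and chr4:152128926-152129175 on the minus strand. The others are chr5:65966874-65967123 (plus), chr9:110880074-110880323 (minus), chr17:28575469-28575718 (plus) and chr14:57133612-57133861 (minus).
Espn, first start: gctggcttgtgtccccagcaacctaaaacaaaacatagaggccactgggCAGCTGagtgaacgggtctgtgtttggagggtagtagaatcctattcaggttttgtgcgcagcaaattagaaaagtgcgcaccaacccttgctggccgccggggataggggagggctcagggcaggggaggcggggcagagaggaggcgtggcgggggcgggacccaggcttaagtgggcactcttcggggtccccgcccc
Espn, inner start: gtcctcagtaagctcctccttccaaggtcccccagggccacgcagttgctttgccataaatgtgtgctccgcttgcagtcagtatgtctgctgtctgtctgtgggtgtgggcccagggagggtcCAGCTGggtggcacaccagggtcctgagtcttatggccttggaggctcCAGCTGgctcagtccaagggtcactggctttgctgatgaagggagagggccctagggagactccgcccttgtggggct
Chrna9: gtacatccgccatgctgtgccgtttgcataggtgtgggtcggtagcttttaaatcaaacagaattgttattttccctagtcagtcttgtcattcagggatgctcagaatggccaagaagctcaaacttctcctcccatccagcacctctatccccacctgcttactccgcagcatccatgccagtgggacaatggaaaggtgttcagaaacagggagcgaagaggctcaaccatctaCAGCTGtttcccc
Tmie: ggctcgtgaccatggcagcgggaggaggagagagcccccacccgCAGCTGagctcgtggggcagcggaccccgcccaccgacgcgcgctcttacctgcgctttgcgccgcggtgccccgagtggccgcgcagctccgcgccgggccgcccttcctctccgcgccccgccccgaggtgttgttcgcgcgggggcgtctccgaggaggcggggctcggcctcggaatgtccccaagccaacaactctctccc
Lhfpl5: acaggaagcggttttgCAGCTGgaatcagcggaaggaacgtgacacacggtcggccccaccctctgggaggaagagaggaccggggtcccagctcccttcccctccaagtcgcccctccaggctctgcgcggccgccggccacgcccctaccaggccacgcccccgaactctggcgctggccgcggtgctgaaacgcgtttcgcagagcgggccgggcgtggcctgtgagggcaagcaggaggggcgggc
Gjb6: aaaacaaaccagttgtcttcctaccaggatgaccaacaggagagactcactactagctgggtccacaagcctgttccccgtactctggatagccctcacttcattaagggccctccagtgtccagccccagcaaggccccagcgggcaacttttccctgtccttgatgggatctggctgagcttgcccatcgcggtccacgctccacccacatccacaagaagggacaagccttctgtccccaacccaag

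Counted back from the start, the first base of the hexamer lay at -201 in the first Espn window, at -126 and -78 in the inner one, at -13 in Chrna9, at -206 in Tmie and at -234 in Lhfpl5. Of the 660 higher genes, 449 matched RefSeq, and 17.0% of their 607 windows held CAGCTG. The share was 13.2% of 68 windows for the 54 lower genes that matched, 11.5% of 11153 windows over the genes tested and 13.0% of 32851 windows over all genes. A related E-box, CAGATG, read on either strand, was in 12.2% of the windows of higher genes, 11.8% of those of lower genes and 9.25% of those of genes tested. These are matches of letters in a short window, given as a description and not as sites of binding.

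Of 24 listed hair cell transcription factors, 19 had enough counts to be tested and 9 were higher (47.4%, against 5.77% of all genes tested), with no member lower and a median log2 fold change of 3.51 over those tested. The median member was the transgene Ikzf2, and the median was 0.80 without OHC-like cell 11, 0.90 without cells 1, 4 and 11, and 0.72 with the cells of series B only. A listed gene entered a test only where some group had enough counts, so shares of tested members describe the lists and are no support for them. The counts of every list below are likewise to be read beside 5.77% higher and 0.655% lower over all genes tested. Atoh1 and Ikzf2 are the transgenes, and reads of the transgene and of the gene at its own locus cannot be told apart. Atoh1 lay at 797, 5869 and 13854 CPM (lowest, median and highest) in OHC-like cells and at 0 to 5.50 CPM in SCs. Ikzf2 lay at 109, 415 and 1124 CPM and 0, 15.1 and 156 CPM (log2 fold change 3.51, standard error 0.67, adjusted p = 5.21e-05). Atoh1 did not overlap between the groups, whereas the highest SC exceeded the lowest OHC-like cell for Ikzf2.

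Among the other factors, Barhl1, a homeobox factor needed for hair cell survival, was on in 10 of 11 OHC-like cells at 0, 195 and 1102 CPM and was at least 500.1-fold higher. Lhx3, a LIM homeobox factor of hair cells, was on in 9 cells at up to 874 CPM (at least 549-fold). Neurod6, a neuronal helix-loop-helix factor, was on in 10 cells at a median of 464 CPM (at least 801-fold). None of the 3 had a count in any SC. Gfi1, the zinc-finger factor that hair cells need to survive, was on in 7 cells at 0, 34.0 and 153 CPM (at least 81.9-fold). Insm1, a zinc-finger factor of young OHCs, was on in 10 OHC-like cells and 1 SC (log2 fold change 8.07, standard error 1.84). Hes6, a target of Atoh1 in young hair cells, was on in 10 and 2 cells (log2 fold change 7.34, standard error 1.59). Pou4f3, the POU-domain factor of hair cell survival, was also called, although it was on in OHC-like cell 11 alone at 708 CPM, and it was not called without that cell. Factors known in SCs as well as hair cells did not pass the test, among them Gata3 at 185 CPM (median) in OHC-like cells and 290.2 CPM in SCs.

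Of 15 listed genes of mechanotransduction and the tip link, 12 were tested and 5 were higher (Tmc1, Tmie, Lhfpl5, Cib2 and Loxhd1), with no member lower and a median log2 fold change of 4.94. Cib2, a calcium-binding partner of the transduction channel, lay at 1648, 4009.7 and 6835 CPM in OHC-like cells and 0, 99.5 and 396 CPM in SCs (log2 fold change 5.15, standard error 0.66, adjusted p = 5.88e-09). Each OHC-like cell was above each SC. Lhfpl5, a tetraspan subunit of the channel complex, was on in 10 of 11 OHC-like cells at 0, 1834 and 5044 CPM, was listed at 0 in OHC-like cell 1, and was on in 2 SCs at up to 25.1 CPM (log2 fold change 9.70, adjusted p = 7.7e-07). Tmie, a further subunit of the complex, was on in 10 cells at 0, 80.8 and 297 CPM and in no SC (at least 177-fold higher). Loxhd1, a protein of the stereocilia membrane, was on in 5 cells only, at up to 994 CPM. Tmc1, a pore-forming subunit, was called but rested on OHC-like cell 11 with 430.0 CPM, with 3.93 CPM in cell 2 and 0.455 in cell 4 the next highest.

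The tip-link cadherins were measured but did not pass. Cdh23, the upper part of the link, was on in 7 OHC-like cells and 3 SCs (log2 fold change 4.73, standard error 1.41, adjusted p = 0.0127). Pcdh15, the lower part, had medians of 88.9 and 24.8 CPM (log2 fold change 0.48, standard error 1.08). Cib3, a relative of Cib2, had an adjusted p of 0.00608, short of the threshold.

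The stereocilia and cuticular plate list was the longest of those on hair cell structure, with 12 of 29 tested genes higher, none lower and a median log2 fold change of 3.85. Triobp, which bundles the actin of stereocilia rootlets, lay at 803, 1026 and 1607 CPM in OHC-like cells and 0.272, 90.3 and 236 CPM in SCs. The groups did not overlap (log2 fold change 3.48, standard error 0.61, adjusted p = 9.26e-06). Pdzd7, a scaffold of the ankle links between stereocilia, was on in 10 cells at up to 153 CPM, with 2 counts in all SCs together. Strc (stereocilin), which joins OHC stereocilia to each other and to the tectorial membrane, was on in 9 OHC-like cells and 1 SC (log2 fold change 5.22, standard error 1.18) and was not called without cell 4.

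The remaining genes called on that list were sparser. Lmo7 of the cuticular plate was on in 8 cells at 0, 32.0 and 305 CPM and the PDZ adaptor Slc9a3r2 in 5 cells. Elmod1, which helps the bundle to mature, was on in 3 cells and Xirp2, an actin-binding protein of stereocilia, in 2. Ptprq, Grxcr1 and Grxcr2, which shape the bundle, were each on in OHC-like cell 11 alone, at 156, 300.0 and 287 CPM. These last 3 were not called without that cell, and the list then had 10 higher genes and a median of 2.71. With cells 1, 4 and 11 all left out it had 7 higher genes.

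General actin genes of the same list did not pass. The cytoplasmic actin Actg1 had medians of 1775 and 1549 CPM (log2 fold change 0.07, standard error 0.40) and the capping protein Capzb 301 and 315 CPM (log2 fold change 0.07, standard error 0.45). Plastin 1 (Pls1) lay at 0.227, 324 and 1423 CPM against 0, 20.8 and 158 CPM, with an adjusted p of 0.00101, at the threshold and not under it. Plastin 3 (Pls3) went the other way, with a median of 0 CPM in OHC-like cells and 85.8 CPM in SCs (log2 fold change -5.63, standard error 1.66, adjusted p = 0.0105). Among unconventional myosins, Myo3a, a motor of stereocilia tips, was higher in addition to Myo7a, being on in 5 OHC-like cells and in no SC. Myo6, which anchors stereocilia at their base, had medians of 1021 and 618 CPM and an adjusted p of 0.09. In the list of the OHC motor and lateral wall, 2 of 6 genes tested were higher, Slc26a5 and Strip2, the latter an OHC gene on in 7 OHC-like cells and 0 SCs, and the median was 0.39.

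**Figure D2:**
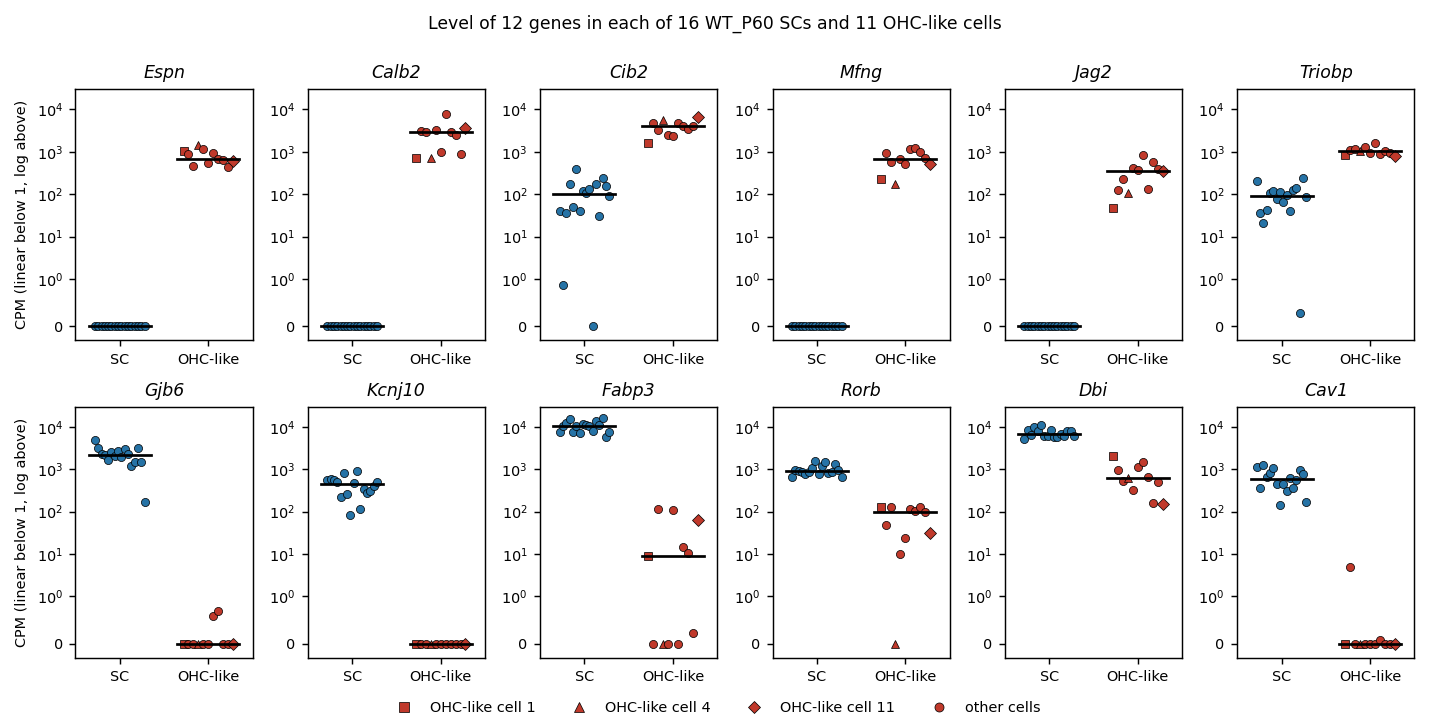
Level of 12 genes in each cell (CPM, linear below 1 and logarithmic above), with 16 WT_P60 SCs in blue, 11 OHC-like cells in red, the group median as a bar, and OHC-like cells 1, 4 and 11 as a square, triangle and diamond. In the top row every OHC-like cell lies above every SC, and in the bottom row every SC lies above every OHC-like cell.

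Calcium-binding proteins were among the most abundant products gained. Of 15 listed, 14 were tested and 6 were higher (among them Ocm, Calb1, Calb2, Pvalb and Necab2), none was lower, and the median log2 fold change was 1.87. Calb2 (calretinin), a buffer, lay at 721, 2953 and 7965 CPM and had no count in any SC (at least 5357-fold higher). All 11 OHC-like cells were above all 16 SCs.

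Ocm, Pvalb and Calb1, 3 buffers among the adult OHC genes named by the study, differed widely between OHC-like cells. The study also calls Pvalb and Calb1 early markers of hair cells in general. Ocm (oncomodulin) was on in 7 of 11 at 0, 290.0 and 5672 CPM, Pvalb (parvalbumin) in 7 at 0, 288 and 1996 CPM and Calb1 (calbindin) in 9 at 0, 119 and 4621 CPM. The highest level of Ocm was in cell 5 and that of both Calb1 and Pvalb in cell 9, and OHC-like cell 1 was at 0 for each. SCs had no count of Pvalb or Calb1 and 1 count of Ocm. Sorcin (Sri), which the study also names as an OHC gene, did not pass, with medians of 65.5 CPM in OHC-like cells and 196 CPM in SCs.

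Channels and receptors of hair cells appeared in part of the cells. Of 11 tested genes for calcium pumps, stores and channels, 3 were higher. Cacna1b, the pore of a neuronal calcium channel, was on in 10 OHC-like cells at 0, 224 and 775 CPM (at least 468-fold). Cacna1d, the pore of the main hair cell calcium channel, was on in 8 at a median of 4.77 CPM (at least 71.1-fold), and its auxiliary subunit gene Cacnb2 in 7 (at least 62.7-fold). The calcium pump of stereocilia, Atp2b2, was on in 10 OHC-like cells and 2 SCs but did not pass (log2 fold change 5.37, standard error 1.39, adjusted p = 0.0028). The potassium channels Kcna10 and Kcnh2 were called although on in only 3 and 4 cells.

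The efferent receptor was present unevenly. Chrna9 was on in 10 of 11 OHC-like cells at 0, 688 and 1872 CPM and in no SC, at least 1464-fold higher (edgeR adjusted p = 1.19e-13). Its partner subunit Chrna10 was on in OHC-like cell 11 alone, at 246 CPM, and was not called without it. Chrna1, a muscle-type subunit of young hair cells, was on in 6 cells at up to 191 CPM. With bounds in place of fitted values the median of the 5 genes tested on this list was 5.46, the value of Chrna10. As fitted it was 10.58, and 2.46 without OHC-like cell 11.

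Of 22 listed genes of the ribbon synapse and vesicle release, 16 were tested and 9 were higher, none lower, with a median of 9.34 as fitted and 4.56 with bounds. Rims2, an active zone scaffold that tethers vesicles and calcium channels, was on in all 11 OHC-like cells at 1.35, 56.7 and 287 CPM and in no SC (at least 170.2-fold). Snap25, the plasma membrane SNARE, was on in 9 cells at 0, 147 and 473 CPM and Gipc3, a PDZ protein needed for hearing, in 10 at 0, 75.7 and 659 CPM. Syn2 (synapsin 2) and Syt2 (synaptotagmin 2) of vesicles were each on in 8 cells. Bsn, the ribbon anchor bassoon, was on in 6 cells with 905 CPM in cell 4 and 70.0 CPM in the next highest, cell 2. Stx1a was on in 3, Ppfia3 in 2 and Snap91 in 1 of 11 cells, and the last 2 were not called without OHC-like cell 11. Ctbp2, whose locus also encodes the ribbon protein RIBEYE, was on in 3 OHC-like cells and 6 SCs and did not pass (adjusted p = 0.649). Otof, the calcium sensor of release in inner hair cells, was on in 1 cell of each group.

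Some genes of neuronal differentiation were also higher. Of 25 listed, 23 had no count in any SC, and 12 of the 13 tested were higher, against 5.77% of all genes tested. The median was 12.24 as fitted and 7.24 with bounds. DESeq2 called 13 of the 13 higher and limma-trend 6. Map1b, a microtubule-associated protein of growing processes, was on in all 11 OHC-like cells at 42.5, 183 and 933 CPM and had no count in SCs (at least 609-fold). Nrsn1 (neurensin 1), a vesicle protein of neurites, was on in 10 at 0, 754 and 1287 CPM (at least 1399.9-fold). The adhesion and guidance genes Nrxn2, Nrxn3, Robo2 and Sema3a were on in 7, 7, 6 and 4 OHC-like cells, and the secretory products Chgb and Gal in 6 each. Dpysl5, Brsk2, Enc1 and Stmn3 completed the 12. Stmn3 was on in 3 cells and was not called without OHC-like cell 11. The 12 listed genes that were not tested included the neurofilaments Nefl, Nefm and Nefh, and no OHC-like cell reached 1 CPM of Nefl. In each cell, 2 to 12 (median 8) of the 25 genes were on in OHC-like cells and 0 to 1 in SCs.

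In the Notch pathway, ligands of one cell activate receptors of its neighbour, and hair cells are known as the ligand side. Of 20 listed genes, 19 were tested and 10 were higher, with none lower and a median of 7.62 as fitted and 3.00 with bounds. Among ligands, Jag2 was on in all 11 OHC-like cells at 46.7, 355 and 852 CPM, above every SC, each of which was at 0 (at least 649-fold). Dll3 was on in 10 cells at 0.227, 306 and 1325 CPM and Dner, a ligand-like protein of maturing hair cells, in 9 at 0, 322 and 419 CPM. Dll1 and Dll4 were on in 4 and 5 cells. Mfng, a glycosyltransferase that modifies Notch, lay at 174, 672 and 1227 CPM and had no count in any SC (at least 1383-fold, edgeR adjusted p = 5.92e-11).

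Receptors and targets were thinner. Notch3 was called but on in 2 cells, and was not called without cell 1. Of the targets, Heyl was on in 10 cells at 0, 313 and 935 CPM (at least 726-fold), whereas Hes5 and Hey2 were each on in 3 at up to 59.5 and 25.8 CPM. Jag1, the ligand that SCs are known for, had medians of 63.7 CPM in OHC-like cells and 103 CPM in SCs and did not pass (log2 fold change -0.96, standard error 1.10). Hes1 (17.4 and 65.6 CPM) and Notch2 (log2 fold change -3.11, standard error 1.58) did not pass either.

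The 75 genes that were lower included both connexins that were tested. Gjb6 (connexin 30, chr14:57123303-57133611 in GRCm38) lay at 173, 2226 and 4931 CPM in WT_P60 SCs and reached 0.685 CPM in OHC-like cells (log2 fold change -13.98, standard error 1.75, adjusted p = 9.41e-09). Gjb2 (connexin 26) lay at 286, 665 and 1207 CPM and reached 2.24 CPM in the 1 OHC-like cell that was on (log2 fold change -11.62, standard error 2.02). Each SC was above each OHC-like cell for both. Kcnj10 (Kir4.1), a potassium channel of Deiters' cells, lay at 84.2, 441 and 929.7 CPM in SCs and had no count in any OHC-like cell (at least 634-fold lower). Fibin, a secreted protein, lay at 62.9, 311 and 1064 CPM against 0.166 CPM in the highest OHC-like cell. Fxyd6, a regulator of the sodium pump, had a median of 501 CPM in SCs, was on in 12 of 16 and reached 0.332 CPM in OHC-like cells. The list of DC and PC genes was mixed: 4 of 15 tested were lower (Fibin, Fxyd6, Kcnj10 and Dbi), 1 was higher (Slc1a3), and the median was -4.41.

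Other lower genes stayed on in some or all OHC-like cells. Dbi, an acyl-CoA-binding protein, lay at 149, 636 and 2101 CPM in OHC-like cells and 5153, 6721 and 11107 CPM in SCs (log2 fold change -3.21, standard error 0.72, adjusted p = 0.000459), but was not called without OHC-like cell 11. Rorb, a nuclear receptor, lay at 0, 95.6 and 132 CPM and 643, 906 and 1568 CPM (log2 fold change -3.73, standard error 0.75). Skp1a, a core subunit of SCF ubiquitin ligases, had medians of 3633 and 22657 CPM (log2 fold change -2.40, standard error 0.40, adjusted p = 3.94e-06). Its highest OHC-like cells were cell 1 at 10902 CPM and cell 11 at 10072 CPM. Fabp3, a fatty acid-binding protein, had means of 29.6 ± 45.6 (SD, n = 11) and 10446 ± 3134 (SD, n = 16) CPM (log2 fold change -8.46, standard error 1.90). It was on in only 6 of 11 OHC-like cells, at 0, 9.12 and 118 CPM (lowest, median and highest), and in 16 of 16 SCs. Every SC was above every OHC-like cell for these 4 genes.

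Caveolae are membrane pits built by caveolins, and both genes of the pair that are next to each other on chromosome 6 were lower. Cav1 (chr6:17306335-17341452) lay at 145, 595 and 1244 CPM in SCs and at most 4.88 CPM in OHC-like cells (log2 fold change -10.44, standard error 1.26). Cav2 (chr6:17281185-17289115) lay at 499.9, 1213 and 2364 CPM and at most 5.75 CPM (log2 fold change -11.10, standard error 1.76). In both, 1 OHC-like cell was at 1 CPM or more. The G protein subunit Gng5, the membrane adaptor Plekhb1 and the actin-linked Sorbs2 fell by less, with log2 fold changes between -3.25 (Gng5) and -2.03 (Sorbs2), as against -7.69 for the phospholipase Liph (standard errors 0.57, 0.45 and 1.79). Liph was not called when cell 1, 4 or 11 was left out, Plekhb1 when cell 1 or 4 was, and Sorbs2 when cell 4 was. Zp1, Tmem221, Scube2 and Drc1 were the other genes with the smallest adjusted p in this direction, and none reached 1 CPM in an OHC-like cell. Genes on in 15 or more SCs and without a count in OHC-like cells were 4 in number: Kcnj10, Dclk3, F12 and Kazald1.

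Of 12 SC genes that the study names, all tested, 3 were lower (Gjb2, Rorb and Dbi), none was higher and the median log2 fold change was -2.94. The study chose these genes on data that include the same SCs, so the list is no independent evidence of its direction. Fgfr3, the receptor whose enhancer drives the Cre, was on in 11 of 11 OHC-like cells at 160.5, 297 and 636 CPM, against 279, 688 and 2019.8 CPM in SCs (log2 fold change -1.28, standard error 1.03, adjusted p = 0.597). Id2 (medians 3196 and 1202 CPM) and Id1 (283 and 34.2 CPM), which restrain helix-loop-helix factors, did not pass. The SC factors Sox2 and Sox9 were on in 4 and 4 OHC-like cells and 13 and 16 SCs and did not pass (log2 fold changes -1.94 and -1.54, standard errors 1.38 and 1.17). Ceacam16, a tectorial membrane protein, had medians of 22.4 and 1600.2 CPM (adjusted p = 0.0442). Lgr5, a receptor of SCs with progenitor traits in the young cochlea, was on in 8 OHC-like cells at up to 801 CPM and in 1 SC, with an adjusted p of 0.00559.

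Several SC genes did not pass although most OHC-like cells were low. Bace2, a protease of SCs, had a median of 0 CPM in OHC-like cells and 1197 CPM in SCs (log2 fold change -4.41, standard error 1.75, adjusted p = 0.0894), with 630.1 CPM in cell 1 and 2.44 CPM in the next highest. Sox10 was on in 1 OHC-like cell, again cell 1, and in 15 SCs (log2 fold change -9.42, standard error 2.28, adjusted p = 0.00152). Glul, the glutamine synthetase of glia-like cells, lay at 379, 1157 and 2027 CPM in SCs and at most 59.8 CPM in OHC-like cells, and Cnn3 (calponin 3) had medians of 110.3 and 1112 CPM. Without OHC-like cell 1, these 4 genes and S100a1 were called lower, and the lower genes numbered 128.

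**Figure D3:**
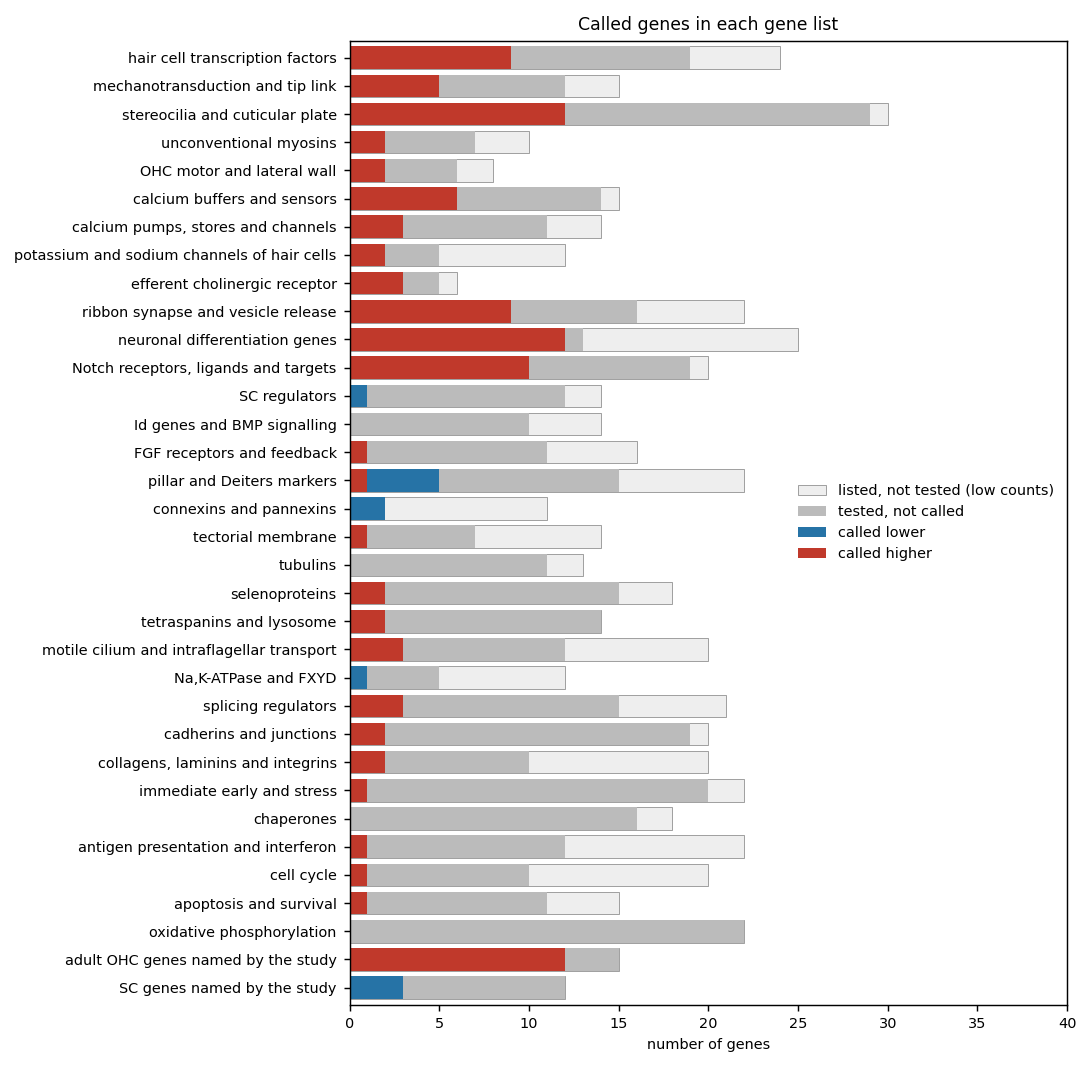
Number of genes in each of 34 lists (x axis) that were called higher (red), called lower (blue), tested and not called (dark grey), or listed with too few counts to be tested (light grey). Higher genes concentrate in the lists of hair cell, neuronal and Notch genes at the top and in the adult OHC genes named by the study, and lower genes in the lists of SC genes and connexins. The lists were chosen with earlier results of these data known, so the pattern is a description and no support for them.

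Of 15 adult OHC genes that the study names, all tested, 12 were higher and 3 (Lbh, Sri and Rbm24) did not pass. They too were chosen by the study on data that include these SCs, and the 12 include Myo7a and Slc26a5, by which the cells were sorted, the transgene Ikzf2, and Tmc1, whose level rested on cell 11. The remaining lists held 0 to 3 called genes each, to be read against 5.77% higher and 0.655% lower over all genes. The selenoproteins Selenow (1024, 1551 and 3200.1 CPM in OHC-like cells and 0, 44.3 and 99.1 CPM in SCs) and Selenom (939.8, 2874 and 5155 and 0, 37.9 and 101 CPM) did not overlap between the groups. Both rose (5.30 and 6.16 on the log2 scale, standard errors 0.46 and 1.15), but 13 other selenoprotein genes tested did not pass and the list's median was -0.12. Cd63, a tetraspanin of late endosomes, was on in all 11 OHC-like cells at 48.7, 526 and 950.4 CPM and in no SC (at least 1049-fold, adjusted p = 6.18e-17), with Tspan7 the other of 2 genes higher out of 14. Nectin1, a junction protein that pairs with the nectin of the neighbouring cell, was on in all 11 at 5.84, 19.0 and 274 CPM and in no SC. Dsp (desmoplakin) was the second of 2 higher among 19 junction genes tested.

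Of 15 splicing regulators tested, 3 were higher, among them Srrm4, which controls neuronal microexons and was on in 10 OHC-like cells at 0, 115 and 347 CPM. Of the 34 lists, 4 held no called gene: Id genes and BMP signalling (10 tested), tubulins (11 tested), chaperones (16 tested) and nuclear genes of oxidative phosphorylation (22 tested). The last had a median log2 fold change of 0.34, beside 0.32 over all genes. Of 20 immediate early and stress genes tested, Klf2 alone was called, as a higher gene, and the list's median was below that of all genes. Of 12 tested genes of motile cilia and intraflagellar transport, 3 were higher (Cfap161, Nme9 and Spag6l), and of 10 collagens, laminins and integrins, Col18a1 and the protease inhibitor gene Timp2, listed with them. Single genes were called among those of FGF signalling (Fgf9), antigen presentation (Irf1), the cell cycle (Cdkn1c) and apoptosis (Bbc3, which was not called without OHC-like cell 4).

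By the size of the difference in mean CPM, 5 of the 10 leading higher genes were mitochondrial. The complex I subunit gene mt-Nd5 lay at 1899, 5098 and 27032 CPM in OHC-like cells and 459, 992 and 1774 CPM in SCs, and mt-Nd4 at 1556, 5897 and 40429 and 809.8, 1278 and 2010.3 CPM (log2 fold changes 2.81 and 2.77, standard errors 0.43 and 0.42). The highest values were those of OHC-like cell 4. Without that cell mt-Cytb, mt-Nd2, the ribosomal mt-Rnr2 and the nuclear Lars2, the mitochondrial leucyl-tRNA synthetase, were not called, while mt-Nd4 and mt-Nd5 were. The part of RNA quality in these differences was not tested.

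Other leading genes were nuclear. Plbd1, a phospholipase-like lysosomal protein, lay at 837, 2875 and 9249 CPM in OHC-like cells and had no count in SCs (at least 7056-fold higher). It was the highest by mean of the 83 genes that were on in 10 or more OHC-like cells and had no count in any SC. Calml4, a calmodulin-like protein of brush borders and stereocilia, lay at 729, 1030.0 and 1819 CPM (at least 2148-fold) and Ppp1r17, a phosphatase inhibitor, at 28.2, 1329 and 2797 CPM (at least 2787-fold). Aplp1, a relative of the amyloid precursor, and Alpl, an alkaline phosphatase, were each on in 10 cells at medians of 1011 and 538 CPM. Lrrc10b, Cbfa2t3 (a transcriptional corepressor) and Slc27a2 (a fatty acid transporter) had adjusted p values of 6.51e-14, 1.15e-13 and 1.72e-11.

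The OHC-like cells were unlike one another. Of the 660 higher genes, 93 were on in all 11 cells, 390 in 4 to 9 and 104 in 1 to 3. A single cell held 266 to 496 of them (median 427), against 38 to 47 (median 40) in a WT_P60 SC. Of the 75 lower genes, 56 were on in no OHC-like cell, and a single OHC-like cell held 5 to 15 (median 9), against 54 to 66 (median 62) in an SC. Both sets were called on these same cells, so the gap between groups largely follows from the choice of genes. Some calls rested on few cells: of the 104 on in 1 to 3 cells, 8 were also called in a fit of the 2 groups alone on the same genes, against 147 of the 166 on in 10 or 11.

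**Figure D4:**
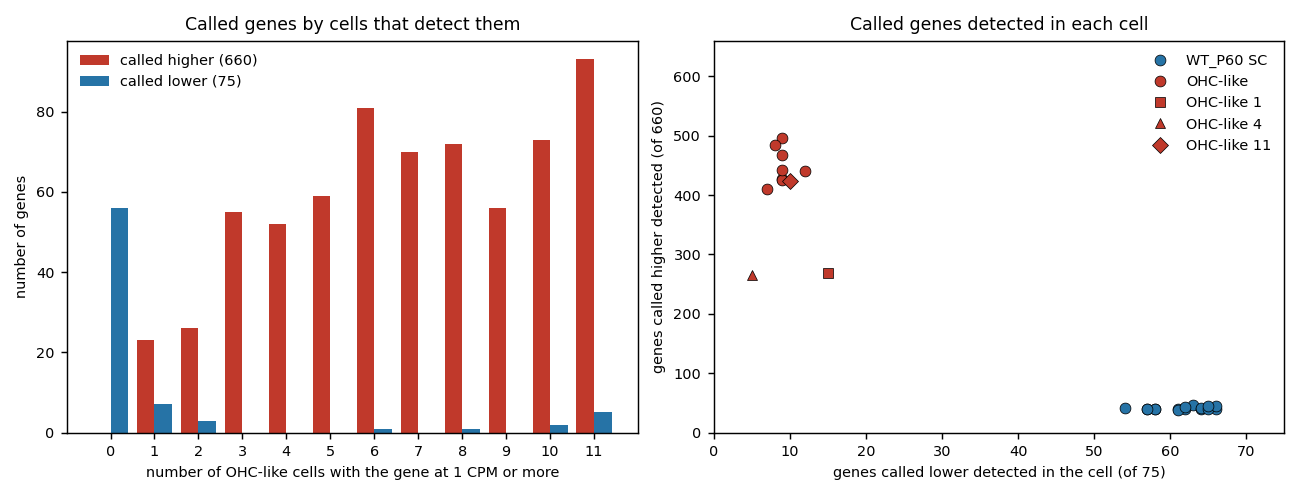
Left, number of called genes (y axis) by the number of OHC-like cells in which they were at 1 CPM or more (x axis), higher genes in red and lower genes in blue. Right, called genes on in each cell, the 75 lower genes on the x axis and the 660 higher genes on the y axis. OHC-like cells 1 and 4 lie lowest among the red points, at 268 and 266 genes, and all SCs in blue lie at 38 to 47. The genes were called on these same cells, so the gap between red and blue points largely follows from that choice.

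Most of the called higher genes that were on in a single OHC-like cell were in cell 11. Of 23 higher genes on in just 1 OHC-like cell, 15 were in cell 11. A gene on in 1 OHC-like cell could enter the test only through cells of other groups. Of the 23, 21 were on in 9 or more of 17 WT_P30 OHCs, among them all 15 of cell 11. Besides Pou4f3, Chrna10, Grxcr1, Grxcr2, Ptprq and Snap91 the 15 included Pjvk, Asic1 and Pcp4, which were chosen for naming after their values were seen. None of the 15 was called without cell 11. The cell also had the highest Slc26a5 (178 CPM), the lowest Ikzf2 (109 CPM) and 3983 CPM of Ocm. It was at 0 for Pvalb.

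OHC-like cell 1 held more of the SC genes named by the study than the others. All 12 were on in it, against 4 to 9 in the other 10 OHC-like cells, and 7 of the 15 adult OHC genes, against 8 to 14 in the others. Sparc, a secreted matrix protein, stood at 6283 CPM in cell 1, within the 3472 to 9011 CPM of SCs, and at most 77.3 CPM in the other OHC-like cells. Otog, a tectorial membrane protein, stood at 897 and at most 25.1 CPM, S100b at 702 and at most 24.9 CPM, and Sox9 at 346 and at most 169.6 CPM. Slc1a3 was called higher on this cell's 575 CPM, with SCs at 0, and was not called without it. The same cell held 1023 CPM of Espn but the lowest Atoh1 (797 CPM) and Myo7a (50.9 CPM) of the group, and none of Ocm, Pvalb, Calb1, Chrna9 or Dner.

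OHC-like cell 4 had the fewest genes and the highest Myo7a (4371 CPM) and Bsn (905 CPM), beside 48.9 CPM of Skp1a against 1764 CPM or more in the others. With cells 1, 4 and 11 left out, a choice made after seeing the data, 634 genes were higher and 85 lower, of which 576 and 40 were among the 660 and 75. Genes without overlap then rose from 95 to 331 with OHC-like cells above and from 107 to 162 with SCs above. Leaving out cells cannot lower such counts, so the direction of this change was fixed in advance.

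**Figure D5:**
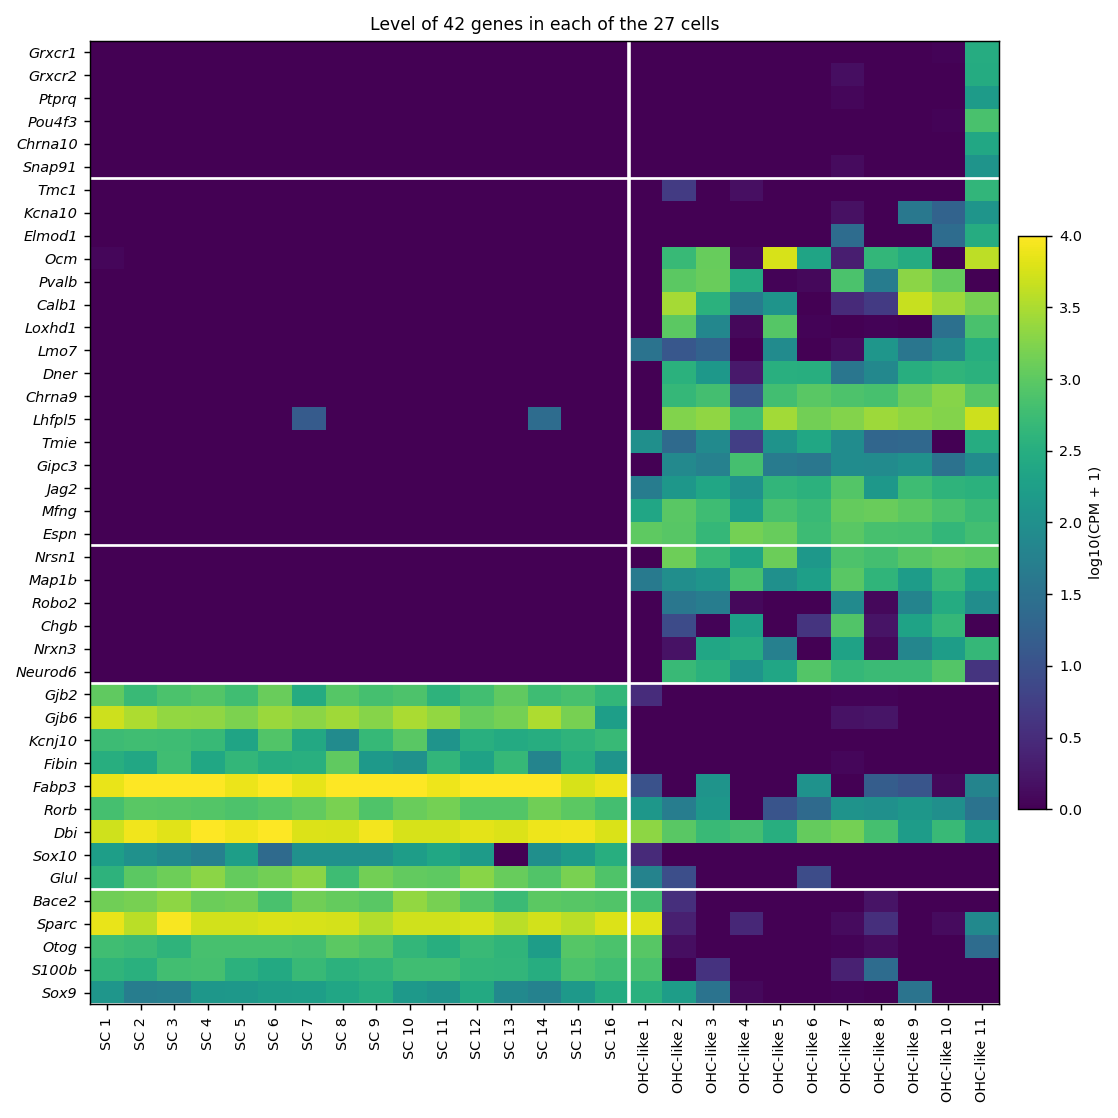
Level of 42 genes (rows) in each of 16 WT_P60 SCs and 11 OHC-like cells (columns), as log10(CPM + 1) from dark (0) to yellow (4 or more). From top to bottom the blocks hold genes on in OHC-like cell 11 alone, other hair cell genes, neuronal genes, SC genes low in OHC-like cells, and 5 SC genes whose highest OHC-like value was that of cell 1.

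Calls were compared between library series, since no series held both groups. With the 5 OHC-like cells of series B alone, 466 of the 660 higher genes and 12 of the 75 lower ones were also called, and with the 6 cells of the other series 537 and 18. The sign was kept by 630 and 654 of the 660 and by all 75 in each. These genes had been called on the same cells, and both fits used the same 16 SCs. Of the 660, 496 had no count in any SC, so agreement in sign was largely fixed in advance. With counts summed per group and series, which leaves 1 sum for SCs and 4 for OHC-like cells, Espn and Mfng were called and no gene was lower, and 802 genes had an unadjusted p under 0.05. The single SC sum is there assumed to vary like the sums of the other groups.

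Levels in the other cells of the series are given beside those of OHC-like cells, without a test. A gene could pass the filter through any of the 5 groups, so these counts partly follow from it. Of the 660 higher genes, 406 were on in 8 or more of 16 nascent HCs, which are Tdtomato+ cells with Myo7a but not Slc26a5, 135 in 8 or more of 15 SCs failing to become HCs, and 187 in 9 or more of 17 WT_P30 OHCs. In 206 genes no WT_P30 OHC was at 1 CPM. The groups also differ in the number of genes on per cell, with medians of 8066.5 in nascent HCs, 6977 in SCs failing to become HCs and 4777 in WT_P30 OHCs. The same counts over all genes tested are not given here, so these numbers do not rank the 3 groups by likeness to OHC-like cells. Espn had medians of 564, 189 and 540.1 CPM in these 3 groups and was on in 16, 15 and 17 cells. Cd63 had medians of 916 and 417 CPM in the first pair and no WT_P30 OHC at 1 CPM, and Selenom 2585, 196 and 0 CPM. Anxa4, an annexin used as a vestibular hair cell marker, had medians of 3022 and 414 CPM and was likewise on in no WT_P30 OHC. Tmc1 and Ocm had medians of 1190.5 and 26313 CPM in WT_P30 OHCs, against 0 and 290.0 CPM in OHC-like cells.

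Markers of other cell types were at or near 0 for some lists and not for others. Of 6 vestibular hair cell markers, 4 were higher: Anxa4 (314, 1608 and 5414 CPM in OHC-like cells and 0, 92.8 and 240.2 CPM in SCs, log2 fold change 4.43, standard error 0.77), the cilium genes Cfap161 and Nme9, on in 7 and 8 OHC-like cells, and Skor1, on in 5. Hemoglobin and other blood genes summed to 2747 CPM in OHC-like cell 2, at most 14.4 CPM in the other OHC-like cells and at most 26.0 CPM in SCs. Macrophage genes summed to at most 0.169 CPM in each of the 27 cells. Of 7 neuron markers, Snap25 was called, and Nefl was under 1 CPM in each cell. Of 5 glia markers, Mbp was on in 9 OHC-like cells at up to 171 CPM and had no count in SCs, while the myelin gene Pmp22 had no count in either group. Of 6 fibroblast markers, Pdgfra was called on 2 cells, and the list summed to 268 CPM in OHC-like cell 1. The endothelial marker Pecam1 was on in 9 SCs at up to 301 CPM and in no OHC-like cell (adjusted p = 0.00326), with Cldn5, Kdr, Cdh5 and Tek at no more than 1.53 CPM in SCs. For these lists the part of other cells' RNA in the calls was not tested. Exons of Cib2, Triobp, Anxa4, Ikzf2, Tmie, Syn2, Fabp3, Sorbs2, Ceacam16 and Cbfa2t3, among others, overlap genes on the opposite strand. Such overlap was found for 34 of 135 named genes that were called, and for 178 of the 720 called genes found in the annotation. Because the use of strand in counting is not stated, reads of such pairs cannot be told apart.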

How the data were processed

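Single cells were hand-picked from the cochlea and made into full-length cDNA libraries (SMART-Seq HT), sequenced as read pairs without molecular identifiers. The submitters' processing notes name FastQC 0.11.9, Trimmomatic 0.39, HISAT2 2.1.0, StringTie 1.3.5, HTSeq 0.10.0 and the mm10 build (GRCm38). The authors deposited a table of raw read counts for 55291 genes, without normalization. The annotation release and the use of strand in counting are not given in the sources used here. The WPRE row, a vector element, held 0.0254% of counts and was left out. Groups came from the sample titles, and no column was left unmatched.

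From these counts, CPM was computed with TMM-scaled library sizes. Genes were kept by edgeR's filter (minimum count 10) and tested with edgeR 4.0.16 (glmQLFit and glmQLFTest, R 4.3.3) in 1 fit of all 5 groups, with Benjamini-Hochberg adjustment over all genes tested. A call needed an adjusted p below 0.001 with a log2 fold change beyond 2 or -2, the sizes of the study's thresholds, whose methods do not say that p was adjusted. Measures per cell were compared by 2-sided permutation tests (100000 resamples, scipy 1.17.1). Genes were named by rule: the 10 smallest adjusted p and the 10 largest differences in mean CPM in each direction, the 10 highest genes without a count in SCs among those on in 10 or more OHC-like cells, and list members. Members and lists were chosen with earlier results of these data known, and lists are described by counts and medians. A fold against a group without counts used a floor of 3 counts in its smallest library, which covers counting error only. Tried instead were DESeq2 1.42.0, limma-trend 3.58.1, other scalings, filters, thresholds, groups, series and cells left out, counts thinned to the smallest total, and counts summed per series. Coordinates are those of GENCODE M21, and promoters those of RefSeq. No 2 of the 27 cells had identical columns (highest correlation 0.835). Some genes are not reported here.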

Additional observations from a re-analysis of the deposited data

How the results depend on the processing

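Of 21 alternatives, 3 (cell 1, cell 11, and cells 1, 4 and 11 left out) were chosen after seeing the data. The 660 genes called higher became 1167 at an adjusted p of 0.05 and a log2 fold change of 1, 102 with only the 2 groups compared, and 2 with counts summed per group and library series. The other alternatives gave 462 to 835, and leaving out cell 1, 4 or 11 gave 640 to 674. The 75 genes called lower became 251 with DESeq2, 385 with limma-trend, 371 at the looser thresholds, 118 with only the 2 groups compared, 135 with those groups on the genes of 5 groups, 22 with OHC-like cells of series B only, 19 with those of other series only and 0 when summed, where 802 genes had an unadjusted p under 0.05. Leaving out cell 1 gave 128 and cell 4 gave 66. Genes with no overlap between groups rose from 95 to between 118 (without cell 11) and 166 (without cell 1), and to 331 without cells 1, 4 and 11, when those with SCs higher numbered 162. Leaving out cells cannot lower these counts. With library size only, 90 genes had OHC-like cells higher and 117 had SCs higher. With counts thinned to the smallest total the numbers were 85 and 117. The share of calls that were higher was 89.8%, but 76.9% with DESeq2, 62.2% with limma-trend, 46.4% with only the 2 groups, 77.4% with those on the genes of 5 groups, 78.3% with the replicate block and 75.9% at the looser thresholds. The top 10 genes' share of counts differed by -1.14 percentage points (OHC-like minus SC) and by -3.61 without cell 4. The sign of Xirp2 turned (log2 fold change -0.69) with OHC-like cells of series B only, where no cell had it on. Why these alternatives differed was not tested. Replicate numbers do not pair the cells: over 11 pairs, deviations of same-numbered cells correlated at -0.042 to 0.020, and 1 cell correlated best with its own number. With the replicate block 552 genes were higher and 153 lower, of which 425 and 58 were among those called without it. Of 135 named genes that were called, Espn and Mfng were called in each alternative that tested them and 70 more in all but 1 of those.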
